A study of Mus musculus with 4 samples.

Results

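Small stretches of H4K16ac that were called in the liver of 1 mouse and not of the other, but that lay right beside an H4K16ac domain of the other mouse, were examined. Acetylation of lysine 16 on the tail of histone H4 loosens the packing of neighbouring nucleosomes and is found in open and transcribed chromatin, where it often forms domains that spread over several nucleosomes. SIRT1 is an NAD+-dependent deacetylase that removes this mark. Broad marks of this kind fade out at the edges of a domain rather than ending at a sharp border, so the place where a called domain ends depends on the signal, on the depth of the library and on the way windows are joined.

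Whole liver came from 1 Sirt1-deficient mouse (MT, labelled SIRT1 KO) and 1 wild type mouse (WT), both 3 months old, in a mixed background of 129/FVB/Black Swiss. MT mice lack Sirt1 in the whole body through a targeted deletion of exons and are the small fraction of mutants that survive development, and WT mice came from the same intercross of heterozygotes. Both livers were taken in the morning and frozen. Each mouse gave 1 ChIP library and 1 input library (the same kind of chromatin, sequenced with no antibody step). With 1 mouse per genotype there is no spread between mice to compare with, so genotype cannot be told apart from differences between 2 animals or 2 libraries, no p-value is given, and all intervals below cover counting error alone. In whole tissue, fewer cells that carry the mark and less mark per cell cannot be told apart either.

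For each mouse the deposited list gives islands, which are runs of 200 bp windows rich in ChIP reads, joined over gaps of up to 400 bp. Each island was kept by the false discovery rate of its ChIP reads over input. A satellite is an island that overlaps no island of the other list but has an edge within 2000 bp of one, and the neighbouring island of the other list is called its host. This rule found 2712 MT satellites among 28377 MT islands and 2092 WT satellites among 26227 WT islands, or 4804 of 54604 islands in all. Satellites were chosen by the called positions of the islands, which come from the ChIP and input reads of both mice, so the absence of the other genotype at a satellite is its definition and not a result. The lists give reads inside islands, and the reads of the other mouse at a satellite were not analysed here. Positions are in the coordinates of the lists, for which the submitters' processing notes name mm8. No gene annotation of that build was used, so satellites are named by position, and the tissue label could not be checked against marker genes.

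The ChIP libraries of the genotypes were close in depth, with MT over WT at 1.05 for ChIP and 1.09 for input, taken from the input reads per kb inside overlapping islands. The lists held 2916128 ChIP reads in MT and 2264125 in WT.

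Satellites made up 9.56% of the MT islands (9.22 to 9.90%, 95% Wilson interval), and the share in WT was 7.98% (7.65 to 8.31%). In all, 43.5% of MT islands and 35.7% of WT islands overlapped no island of the other list, and of these one-list islands a similar part lay beside a domain in both lists, namely 22.0% in MT (21.3 to 22.7%) and 22.3% in WT (21.5 to 23.2%). The MT list thus held 620 more satellites than the WT list, a ratio of 1.30 (95% exact interval 1.22 to 1.37). The ratio was 1.32 (1.28 to 1.36) for remote one-list islands, which are further than 2000 bp from the other list, 0.951 for overlapping islands and 1.08 for all islands. The ratio of satellites thus lay within counting error of that of remote islands.

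In total length MT satellites came to 6.34 Mb and WT satellites to 4.18 Mb, a ratio of 1.52. The ratio of covered length was 1.53 for remote one-list islands, close to that of satellites, and 1.25 for all islands. Satellites accounted for 2.16 Mb, or 12.2%, of the 17.7 Mb by which the MT islands exceeded the WT islands in covered length. Remote islands accounted for 43.8% and overlapping islands for 44.1%. Most of the added MT length thus lay elsewhere.

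Satellites were not spread evenly over the 2000 bp beside a host. Of the MT satellites 64 abutted a WT island, 98 lay 200 bp away and 169 lay 400 bp away. The number then rose to 536 at 600 bp and fell to 422 at 800 bp, 311 at 1000 bp and 194 at 2000 bp. The WT satellites followed the same course, with 55 abutting an MT island, 141 at 400 bp, 403 at 600 bp and 137 at 2000 bp. The median gap was 1000 bp in both lists.

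The step at 600 bp coincides with the way islands are made. Windows up to 400 bp apart are joined within a list, and the smallest gap between neighbouring islands of a list was 600 bp in both lists. Where a domain is called in both mice up to the same edge, a further island in 1 of them can therefore start no closer than 600 bp from it. Such equal edges were found for 32.0% of MT and 27.2% of WT flanking satellites, defined below, and facing satellites, whose hosts overlap no island of the list the satellite is from, showed the step too, from 62 at 400 bp to 159 at 600 bp in MT and from 54 to 150 in WT. The cause of the step was not tested. Beyond 2000 bp the numbers went on falling without a break: 177 MT and 133 WT one-list islands lay at 2200 bp. From 200 to 2000 bp there were on average 265 MT and 204 WT islands per 200 bp step, and from 2200 to 4000 bp there were 156 and 109. The limit of 2000 bp does not mark a natural border. MT islands at 2000 bp had a median length of 2000 bp and a median ChIP over scaled input of 1.93, and those at 2200 bp had 2000 bp and 1.93. WT islands had 1600 bp and 1.97 at 2000 bp, and 1800 bp and 2.02 at 2200 bp.

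**Figure D1:**
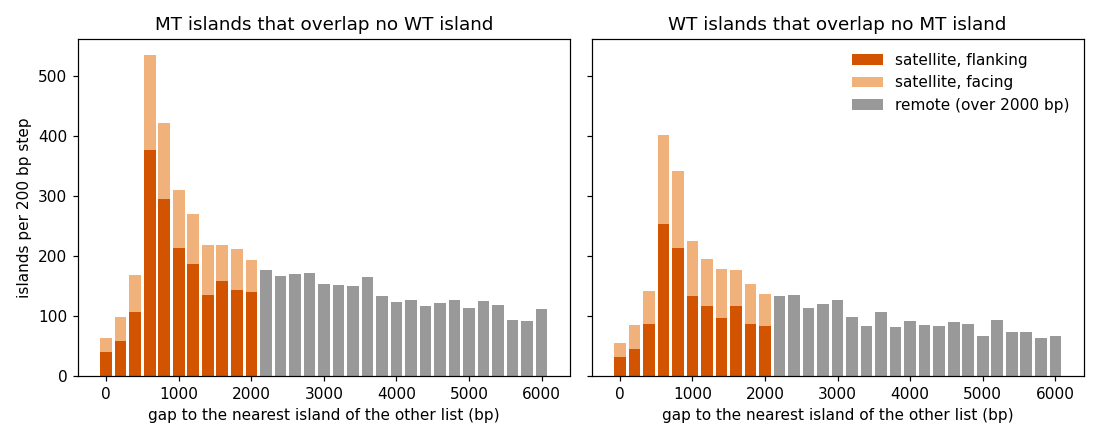
Number of one-list islands (y axis) by the gap to the nearest island of the other list in bp (x axis), in 200 bp steps, for MT (left) and WT (right), with satellites in orange, divided into flanking and facing, and remote islands in grey. Both lists peak at 600 bp, with 536 MT and 403 WT islands, and decline past the limit of 2000 bp without a break.

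Satellites fell into 2 settings. Flanking satellites had at least 1 host that was itself overlapped by an island of the satellite's own list, so that the host was called in both mice and the satellite in 1 of them. Facing satellites had hosts within 2000 bp that were all one-list islands, so that each mouse had a call that the other lacked, side by side. The MT list held 1856 flanking and 856 facing satellites, and the WT list held 1263 and 829. Nearly all of the MT excess was in the flanking setting, with 593 more in MT than in WT, a ratio of 1.47 (1.37 to 1.58). Facing satellites differed by 27, a ratio of 1.03 (0.937 to 1.14), which includes 1. This near balance is in part built in, since a facing satellite of 1 list needs a one-list island of the other as its host.

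Among the WT islands that overlapped an MT island, 11.4% (10.9 to 11.9%) had an MT satellite within 2000 bp, and among the MT islands that overlapped a WT island 8.30% (7.89 to 8.74%) had a WT satellite. Merging overlapping islands of both lists gave 14719 shared regions. An MT satellite stood beside 1905 of them (12.9%) and a WT satellite beside 1320 (8.97%), and 92 (0.625%) had both. With single shares this small, few regions can be expected to have both, so the low count is not read as a result.

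Most hosts had a single satellite. Of 2858 WT hosts 2758 had 1 MT satellite, 97 had 2 and 3 had 3, and of 2261 MT hosts 2183 had 1 WT satellite and 78 had 2. The hosts held satellites on either side alike: 1225 MT satellites had their host on the side of lower coordinates alone and 1245 on the side of higher coordinates alone, and in WT these were 921 and 932. A further 242 MT satellites (8.92%) and 239 WT satellites (11.4%) lay between hosts on both sides.

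Among WT domains, longer ones more often had an MT satellite beside them. The share was 10.1% (9.38 to 10.9%) of shared WT islands below 2000 bp, 11.7% (11.1 to 12.4%) from 2000 to 5000 bp, 12.8% (11.4 to 14.3%) from 5000 to 10000 bp and 16.5% (12.6 to 21.3%) of the 273 islands of 10000 bp or more. For WT satellites the share of shared MT islands was 7.41% (6.64 to 8.26%) below 2000 bp and 8.86% (6.71 to 11.6%) for the 519 islands of 10000 bp or more, with intervals that overlap. Strongly enriched domains were not the ones with most satellites. Of MT islands with a ChIP over scaled input of 4 or more, 5.99% (4.43 to 8.05%) had a WT satellite, and of those under 2 it was 9.06% (8.39 to 9.79%). For WT islands these shares were 9.74% (7.92 to 11.9%) and 11.6% (10.9 to 12.4%), with intervals that overlap.

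Satellites were short islands of about 10 windows. MT satellites ranged from 200 to 10400 bp with a median of 2000 bp and a middle 50% from 1400 to 2800 bp. WT satellites ranged from 200 to 7600 bp with a median of 1800 bp and a middle 50% from 1200 to 2400 bp. Remote islands had the same medians of 2000 bp in MT and 1800 bp in WT, and overlapping islands were longer, with medians of 3000 and 2400 bp.

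The MT excess grew with length. Below 1000 bp the lists held 187 MT and 177 WT satellites, a ratio of 1.06 (0.856 to 1.31), and from 1000 to 2000 bp they held 1004 and 970, a ratio of 1.04 (0.947 to 1.13). No excess was detectable in these classes over all satellites at this depth, although flanking satellites of 1000 to 2000 bp gave 676 against 594, a ratio of 1.14 (1.02 to 1.27), and facing ones 0.872 (0.750 to 1.01). Of 2000 to 3000 bp there were 850 MT and 614 WT satellites (ratio 1.38, 1.25 to 1.54), of 3000 to 5000 bp 537 and 296 (1.81, 1.57 to 2.10) and of 5000 bp or more 134 and 35 (3.83, 2.62 to 5.73). Satellites of 2000 bp or more thus made up 576 of the 620 by which MT exceeded WT.

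The ratio rose with length in the other islands too. All islands gave 0.727 below 1000 bp and 1.59 (1.51 to 1.67) at 5000 bp or more, and remote islands gave 0.833 and 2.26 (1.91 to 2.69). Flanking satellites gave 1.19 (0.923 to 1.54) below 1000 bp and 4.43 (2.80 to 7.31) at 5000 bp or more, where 102 MT and 23 WT islands were counted. In the classes between, flanking and remote ratios lay within counting error of each other, at 1.14 (1.02 to 1.27) and 1.07 (1.02 to 1.13), at 1.59 (1.39 to 1.82) and 1.49 (1.41 to 1.57), and at 2.14 (1.78 to 2.57) and 1.996 (1.84 to 2.16). Even facing satellites, whose numbers were close in total, leaned to MT among long ones, with 32 MT and 12 WT islands of 5000 bp or more.

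**Figure D2:**
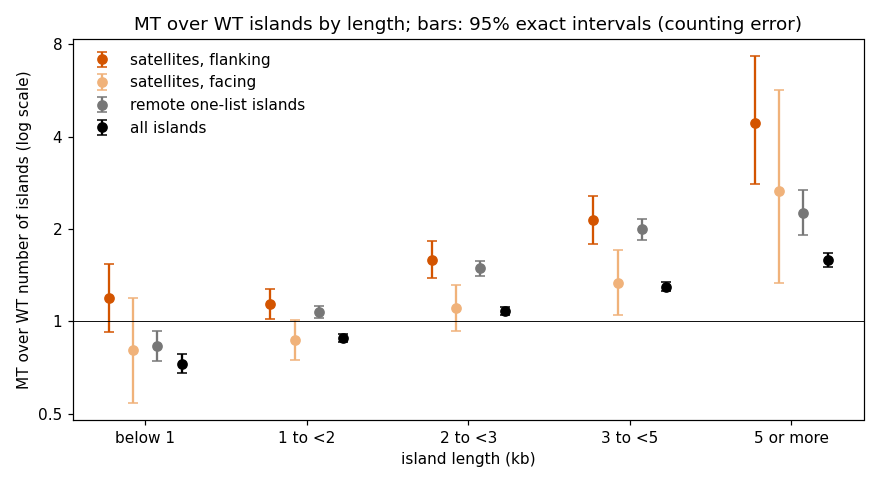
MT over WT number of islands (y axis, log scale) by island length in kb (x axis) for flanking and facing satellites, remote one-list islands and all islands, with 95% exact intervals that cover counting error alone. Flanking satellites run from 1.19 in the shortest class to 4.43 in the longest, and all islands from 0.727 to 1.59.

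The excess also depended on enrichment, given as ChIP reads over input reads scaled for library size. With a value below 1.5 there were 120 MT and 51 WT satellites (ratio 2.35, 1.68 to 3.33), from 1.5 to 2 there were 1412 and 1015 (1.39, 1.28 to 1.51), from 2 to 3 there were 964 and 828 (1.16, 1.06 to 1.28), and at 3 or more 216 and 198 (1.09, 0.895 to 1.33). The surplus of MT satellites thus lay mostly among long islands and among weakly enriched ones, with 466 of the 620 below a value of 2. At 2 or more MT still exceeded WT by 154, a ratio of 1.15 (1.06 to 1.25). Length and enrichment went together: the median value of MT satellites was 2.57 below 1000 bp and 1.78 at 2000 bp or more. Remote islands showed nearly the same order as satellites, from 2.20 (1.89 to 2.56) below 1.5 to 1.03 (0.913 to 1.15) at 3 or more. All islands went from 1.57 to 0.912.

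The ChIP density of the satellites was alike in the genotypes and lay below that of islands called in both. Over all lengths together, the median ChIP over scaled input of satellites was lower in MT than in WT. The median MT satellite had 58 ChIP reads and 28 input reads, and the median WT satellite 50 and 22. Summed over all satellites and brought to WT depth, MT satellites had 28.1 and WT satellites 28.2 ChIP reads per kb. Overlapping islands had 34.0 and 34.1 on the same scale. The median ChIP over scaled input was 1.93 in MT satellites (95% interval of the median 1.89 to 1.94) and 1.997 in WT satellites (1.97 to 2.02), against 2.14 and 2.16 in overlapping islands. Remote islands differed in the same direction, at 1.89 and 1.96. Within each length class the intervals of MT and WT satellites overlapped. They were 2.06 to 2.13 and 2.08 to 2.16 from 1000 to 2000 bp, and 1.76 to 1.80 and 1.79 to 1.82 at 2000 bp or more. The input in satellites was not raised: summed input reads per kb were 14.7 in MT satellites and 15.8 in MT overlapping islands, and 13.1 and 14.5 in WT.

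Of the MT satellites 43.5% had a ChIP over scaled input of at least 2, below the 51.2% of all MT islands, and of the WT satellites 49.0%, below the 55.8% of all WT islands. More satellites lay near the calling threshold than islands called in both mice. A false discovery rate above 1e-04, within a factor of 10 of the authors' limit of 0.001, was found in 24.6% of MT satellites (23.0 to 26.3%) against 18.5% of all MT islands, and in 28.3% of WT satellites (26.4 to 30.2%) against 19.7% of all WT islands. In overlapping islands these shares were 10.1% and 12.7%, and in remote islands 30.6% and 33.5%.

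Satellites and remote one-list islands were close in enrichment. The median ChIP over scaled input was 1.93 against 1.89 in MT, a difference of 0.034 (bounds from both intervals 0 to 0.050), and 1.997 against 1.96 in WT, a difference of 0.036 (-0.0052 to 0.072). Both ranges reach or include 0. Within length classes the satellites had the higher medians, but in MT the intervals were apart in 1 of 3 classes, at 2.09 (2.06 to 2.13) against 2.03 (2.01 to 2.04) for 1000 to 2000 bp. Below 1000 bp they were 2.37 to 2.75 against 2.37 to 2.50 in MT and 2.45 to 2.73 against 2.40 to 2.54 in WT. They met at 2.08 from 1000 to 2000 bp in WT and overlapped at 2000 bp or more in both lists. These differences are small beside the spread among islands, whose middle 50% ran from 1.71 to 2.30 in MT satellites and from 1.76 to 2.39 in WT satellites. Flanking satellites had the higher medians of the 2 settings, 1.94 in MT and 2.04 in WT against 1.89 and 1.94 for facing ones.

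**Figure D3:**
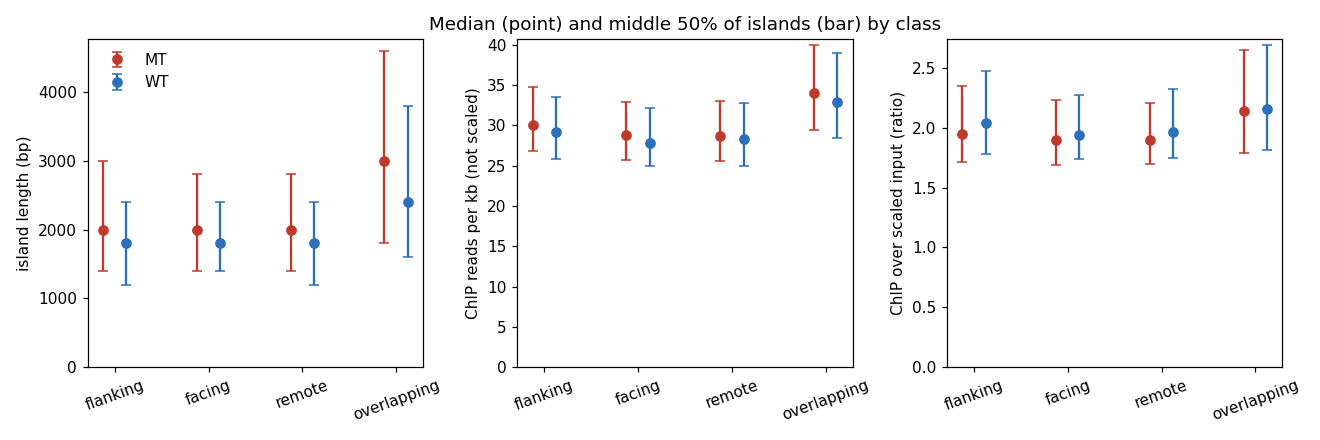
Island length in bp, ChIP reads per kb before scaling and ChIP over scaled input (y axes) of flanking satellites, facing satellites, remote and overlapping islands (x axis) in MT (red) and WT (blue), as medians (points) and middle 50% of islands (bars). Satellites resemble remote islands, with a median length of 2000 bp in MT and 1800 bp in WT, and lie below overlapping islands in all 3 measures.

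A second island of the same mouse usually stood near a flanking satellite. An own-list island within 2000 bp was found beside 66.6% of MT satellites and 54.0% of WT satellites, against 39.2% of all MT and 36.1% of all WT islands. By setting the share was 91.8% of flanking and 12.2% of facing MT satellites, and 83.7% and 8.81% in WT. For flanking satellites this is close to the definition of the setting. For facing satellites the share lies below that of the remote islands, at 21.8% in MT and 15.3% in WT. This too is in part set by the definition, since no host of a facing satellite may be overlapped by an own-list island. The median MT satellite had 5 further MT islands within 50000 bp of its centre and the median WT satellite 4 further WT islands, against 3 for remote islands in both lists.

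For each flanking satellite the nearest own-list island that overlapped the host was taken as its partner. Whether satellite and partner belong to 1 domain was not tested. The gap between them was 600 bp, the smallest possible, for 32.9% of the 1856 MT satellites and 25.2% of the 1263 WT satellites, and at most 1000 bp for 64.0% and 53.0%. Many satellites were thus separated from their partner by a few windows.

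The island edge on the side of the satellite differed between the lists. The MT partner reached further towards the MT satellite than the WT host in 615 cases (33.1%), ended at the same window in 594 (32.0%) and fell short of the host in 647 (34.9%). The WT partner reached further than the MT host in 292 cases (23.1%), ended at the same window in 344 (27.2%) and fell short in 627 (49.6%). For MT satellites the 3 outcomes were thus about equally frequent, whereas beside WT satellites the MT host most often reached further than the WT partner. Over its whole length, the partner was longer than the host in 55.0% of MT and 32.9% of WT satellites. Shared islands with no satellite of the other list beside them were longer in MT too, with medians of 3000 bp in MT and 2400 bp in WT. Their edges were not compared, so whether the edge counts are particular to satellites was not tested.

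Flanking satellites mostly carried less signal than their partners. By definition a partner overlapped an island of the other list and a satellite did not, so one-list islands are compared here with shared ones. Remote islands lay below overlapping islands as well, at 28.6 against 35.6 summed ChIP reads per kb in MT and 27.9 against 34.1 in WT, before scaling. The median log2 of ChIP reads per kb of the satellite over those of its partner was -0.22 in MT (95% interval -0.25 to -0.19), a ratio of 0.857, and -0.17 in WT (-0.19 to -0.13), a ratio of 0.891. The satellite was lower in 70.8% of MT and 66.5% of WT cases. For ChIP over scaled input the median log2 was -0.14 in MT (-0.17 to -0.12) and -0.06 in WT (-0.10 to -0.03), and the median log2 of input reads per kb was -0.07 and -0.11.

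**Figure D4:**
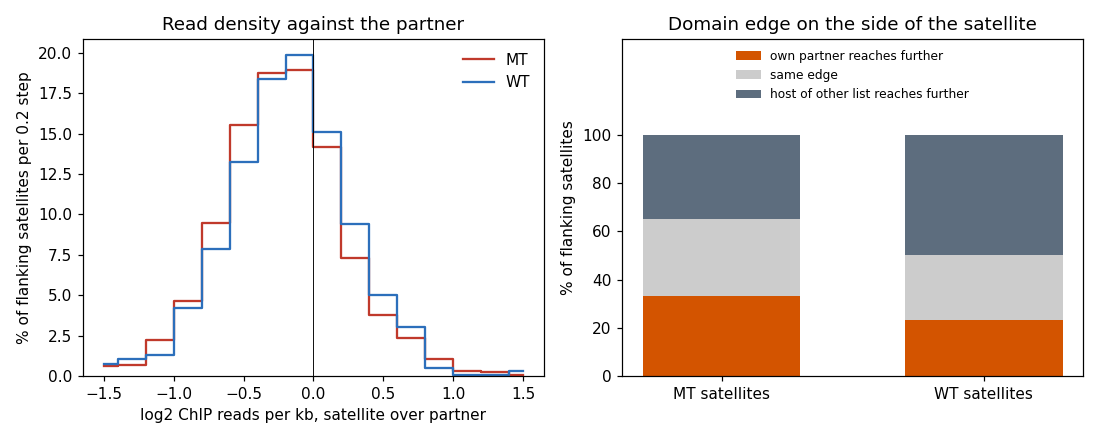
Left, share of flanking satellites (y axis, %) by log2 ChIP reads per kb of the satellite over its own-list partner (x axis) in MT (red) and WT (blue), with values beyond 1.6 in the outer steps; right, share of flanking satellites by which island reached further on the side of the satellite. Most satellites lie below their partner, 70.8% in MT and 66.5% in WT, and the host of the other list reached further in 34.9% of MT and 49.6% of WT cases.

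In 685 places a single MT satellite faced a single WT satellite, each with no other host within 2000 bp. The median gap in these pairs was 1000 bp, and in 94 pairs (13.7%) it was at most 400 bp, a distance over which windows of 1 list are joined. The pair together spanned a median of 5000 bp. The MT island was longer in 361 pairs (52.7%), the WT island in 286 (41.8%), and 38 had equal lengths. With MT brought to WT depth, the density of the MT island over that of the WT island had a median log2 of -0.04 (-0.07 to -0.01), with a middle 50% from -0.27 to 0.20 and the MT island higher in 45.8%. The sign of this difference depends on the depth factor, whose error the interval does not hold: with no scaling the median log2 was 0.023 (-0.0056 to 0.059). Facing pairs were therefore nearly even in density, and the MT island was more often the longer.

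The MT satellite with the most ChIP reads lay at chr13:74232401-74242200 and had 397 ChIP and 175 input reads over 9800 bp, a ChIP over scaled input of 2.15 (95% exact interval 1.79 to 2.58). Its false discovery rate was 1.81e-40 in the authors' list. Its host was a WT island of 1400 bp with 39 ChIP reads, 1800 bp away, and its partner an MT island of 3400 bp with 104 ChIP reads and a ChIP over scaled input of 1.49, 800 bp away. The satellite was longer and held more ChIP reads than its host and its partner.

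The second MT satellite by reads, at chr3:122190601-122199000, showed the same order, with 328 ChIP and 128 input reads (ratio 2.43, 1.97 to 3.00) beside a WT host with 65 ChIP reads and an MT partner with 61. The satellite at chr6:90459201-90469400 also had 328 ChIP reads, with 150 input reads (2.07, 1.70 to 2.53), and lay between WT hosts on both sides. The satellite at chr8:35275401-35285800 was the longest of all, at 10400 bp, with 327 ChIP and 184 input reads (1.68, 1.40 to 2.03). It stood 1200 bp from a WT island with 155 ChIP reads, which overlapped an MT island with 166. The satellite at chr8:113526001-113533600 had 305 ChIP and 137 input reads (2.11, 1.72 to 2.60). All 5 MT satellites with the most reads were flanking, and the 3 longest were among them.

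The leading WT satellites were smaller. The one with the most reads, at chr9:23097201-23104000, had 239 ChIP and 88 input reads over 6800 bp (2.47, 1.93 to 3.19), with its nearest own-list island 600 bp and its MT host 2000 bp away. The next, at chr16:11347201-11354800, had 209 ChIP and 150 input reads (1.27, 1.02 to 1.57) and passed the threshold with a false discovery rate of 8.60e-04. The others were at chr10:84074401-84081800 with 205 ChIP reads, chr6:90366601-90373200 with 197, and chr14:120315201-120321000 with 189. The last of these abutted an MT island of 3600 bp that had no WT island over it, so that an island of WT ended at the window where one of MT began. The 3 longest WT satellites were those on chromosomes 16 and 10 above and chr15:75814401-75822000, of 7600 bp, with 168 ChIP reads.

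**Figure D5:**
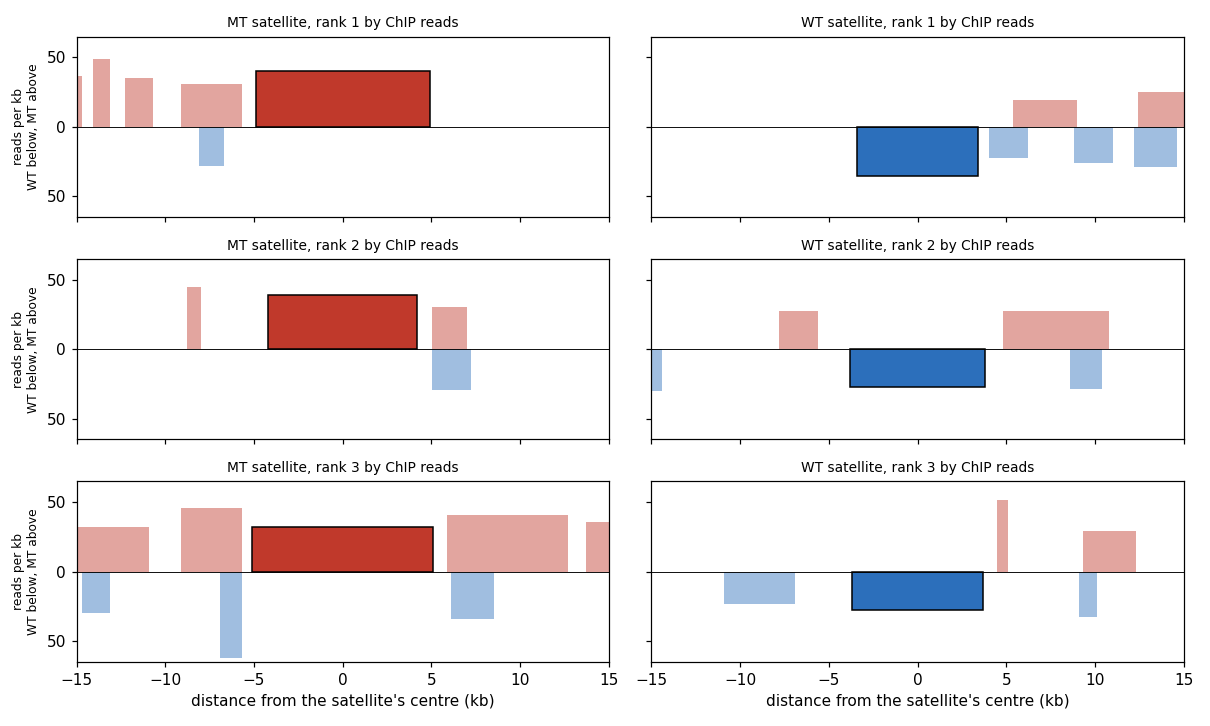
Islands within 15 kb of the 3 MT satellites (left) and the 3 WT satellites (right) with the most ChIP reads, by distance from the satellite's centre in kb (x axis), with heights in ChIP reads per kb before scaling (y axis), MT above and WT below the line. The named satellite is outlined, and no island of the other list lies on its opposite side; the first MT satellite, of 9800 bp, is wider than the WT island beside it, of 1400 bp.

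By enrichment, among satellites with at least 10 input reads, the leading MT satellite was at chr3:98849001-98851800, with 83 ChIP and 12 input reads (6.55, 3.56 to 13.2), facing a WT island with 57 ChIP and 23 input reads 1000 bp away. It was followed by chr19:34761201-34762600 at 4.83 (2.42 to 10.7), chr2:160338201-160341000 at 4.66 (2.54 to 9.22), chr14:61713401-61715000 at 4.64 (2.32 to 10.3) and chr18:38900001-38901600 at 4.48 (2.31 to 9.51). The intervals of these 5 overlap, so their order is not resolved.

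The leading WT satellite was at chr18:60509001-60511600, with 83 ChIP and 11 input reads (6.86, 3.64 to 14.3), between MT hosts on both sides. It was followed by chr16:34671401-34673000 at 6.18 (3.16 to 13.5), chr14:75768001-75769800 at 5.27 (2.67 to 11.6), chr2:126582201-126585200 at 4.91 (2.81 to 9.17) and chr5:88103601-88106200 at 4.87 (2.54 to 10.3). The most enriched satellites were of like strength in both lists, and their intervals overlap across genotypes.

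Satellites were found on every chromosome in the lists. On the autosomes they made up 7.92% (chromosome 17) to 11.2% (chromosome 5) of MT islands and 6.63% (chromosome 17) to 9.04% (chromosome 16) of WT islands. MT satellites outnumbered WT satellites on all 19 autosomes, from a ratio of 1.04 (0.775 to 1.41) on chromosome 15 to 1.54 (1.12 to 2.12) on chromosome 18. Flanking satellites had ratios from 1.03 on chromosome 15 to 1.95 (1.43 to 2.68) on chromosome 5. The intervals of these lowest and highest MT over WT ratios overlap for all satellites. The shares of MT islands on chromosome 17 (6.50 to 9.63%) and chromosome 5 (9.81 to 12.8%) have intervals that are apart. On chromosome X there were 4 MT and 6 WT satellites among 142 and 126 islands.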

How the data were processed

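H4K16ac ChIP-Seq lists of 1 MT and 1 WT liver were analysed. Per the labels, Bowtie 0.12.7, SICER 1.03 and the build mm8 were named in the submitters' processing notes, which give no roles. The authors removed duplicate reads, counted reads in windows of 200 bp, joined windows over gaps of 400 bp and kept islands at a false discovery rate of 0.001. The deposited values are whole ChIP and input read counts per island, the p-value and false discovery rate of the ChIP reads, and a ratio (fold) of ChIP over input scaled for library size. The lists have no header, and the fold was checked to be the ratio of the counts times 1 constant per list. The deposited p-value was not used.

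Islands were compared with Python 3.11.15, numpy 2.4.6, pandas 2.3.3 and scipy 1.17.1. Gaps are bases between edges. The search was tested on simulated lists against a search by brute force. Intervals are 95% Wilson (shares), exact binomial (ratios of counts) and binomial order statistics (medians). The median satellite had 58 ChIP reads in MT and 50 in WT, which limits single satellites. The named satellites are the 5 with the most ChIP reads, the 5 with the highest ChIP over scaled input among those with at least 10 input reads, and the 3 longest of each list. The members, length classes and settings were chosen with earlier results of these data known. No gene annotation or genome of the build was used, so no gene or sequence is given. Alternatives were other distance limits, stricter islands, autosomes, hosts of shared domains and pooled values.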

Additional observations from a re-analysis of the deposited data

How the results depend on the processing

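No paired analysis was possible because each genotype has 1 mouse. The alternatives gave 84 values. Of these, 33 lay inside the interval of the reported value (for counts, within 1.5 times of it), 49 lay outside, and 2 crossed the line of no difference. The ratio of MT to WT satellites stayed above 1 under every alternative listed here. Where an alternative does not set a change by construction, as the distance limits and filters do, the cause was not tested. The number of satellites was 1600 in MT and 1251 in WT with a limit of 1000 bp, 4877 and 3595 with 5000 bp, 1509 and 1057 with both lists restricted to a false discovery rate up to 1e-05, 1115 and 974 at a fold of at least 2, and 1686 and 1042 with at least 50 ChIP reads. With hosts of shared domains alone, WT had 1263. The ratio was 1.43 with the lower false discovery rate, 1.14 with the fold filter, 1.62 with at least 50 ChIP reads and 1.47 with hosts of shared domains. Flanking satellites, an alternative chosen after seeing the data, gave 1.66, 1.24 and 2.06 under the first 3 of these. With a minimum of 50 ChIP reads in WT and 1.05 times that in MT, also chosen so and with islands still called at the original depths, the ratio was 1.48 for all, 1.81 for flanking and 0.995 for facing satellites, against 1.03 as reported for facing ones. Without depth scaling, a setting added after seeing the data, the median log2 density of facing pairs was 0.023, against -0.04 as reported. Median lengths in MT were 2400 bp with the lower false discovery rate, 1800 bp with the fold filter and 2600 bp with at least 50 reads, and in WT 1600 and 2400 bp under the last 2; mean lengths were 2337 and 1997 bp. Median ChIP over scaled input was 2.18, 2.39 and 1.85 in MT and 2.34, 2.41 and 1.85 in WT under the same 3 filters, and 1.96 in WT when pooled. The excess of satellites over remote islands in this ratio, 0.034 in MT and 0.036 in WT, was 0.16 and 0.083 below 1000 bp and 0.064 in MT from 1000 to 2000 bp.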

Other observations

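Under 10 input reads were counted in 89 of 2712 MT satellites and 127 of 2092 WT satellites, and their ChIP over scaled input was therefore not ranked. The highest such ratios, 11.4 in MT and 19.995 in WT, come from these islands. The shortest satellites were single windows of 200 bp in both lists.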
